A study of Mus musculus with 96 samples.

Results

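Dbp, Tef, Hlf and Nfil3 were followed in poly(A) RNA-seq of mouse liver. They are 4 of the 24066 genes with a symbol of their own in the deposited tables of FPKM (fragments scaled to transcript length and to library size). They were chosen by name, and all 4 were measured in each of the 96 libraries. The C57BL/6J mice made up 8 arms of 12 libraries, with 3 libraries at each of ZT0, ZT6, ZT12 and ZT18 (zeitgeber time, in hours from lights on). Shifted mothers, labelled as circadian disruption, had their light phase moved 8 h earlier at intervals of 5 days while pregnant, and control mothers stayed on 12 h of light and 12 h of dark. Fetal livers came from both schedules. Male offspring of both schedules ate a high-fat or a low-fat diet, starting at 4 weeks of age and lasting 12 weeks. The sources used here do not say whether the 3 libraries of a group were separate animals, so a p-value measures the spread between libraries, which may be technical. They also do not give the day of gestation, the time since the last advance, or the lights-on from which ZT was counted in shifted mothers. Each arm was deposited as its own table, so a difference between tables and one between arms cannot be told apart.

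Dbp, Tef and Hlf encode the PAR bZIP transcription factors, which bind D-box elements as activators. Nfil3 (also called E4BP4) encodes a bZIP repressor that binds the same elements. In mouse liver Dbp is transcribed under the clock activators CLOCK and BMAL1 (the product of Arntl), while Nfil3 is repressed by the nuclear receptor REV-ERB alpha (the product of Nr1d1), so activators and repressor are known to alternate over the day. Known targets include genes of detoxification and heme synthesis, such as Por and Alas1, and clock genes of the Per family.

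All 4 genes matched an entry in the RefSeq promoter table (GRCm38.p6, 250 bases before to 50 after the start of transcription). In GRCm38.p6 Dbp lies at chr7:45705100-45710203, Tef at chr15:81802673-81826863, Hlf at chr11:90336535-90390917 and Nfil3 at chr13:52967209-52982878. The sequences below are shown because activators and repressor peaked at opposite times below, and these are the windows in which the known clock elements of such genes were looked for. Capitals mark matches, on either strand, to the E-box CACGTG, the D-box TTANGTAA or the RORE core AGGTCA. The windows are chr7:45704997-45705296 (plus strand) for Dbp, chr15:81802423-81802722 and chr15:81811164-81811463 (plus strand) for the 2 starts of Tef, and chr13:52980990-52981289 (minus strand) for Nfil3. On the minus strand a gene begins at its higher coordinate. The Nfil3 window lies inside the gene span given above, so bases around the outer start of Nfil3 were not searched.
Dbp: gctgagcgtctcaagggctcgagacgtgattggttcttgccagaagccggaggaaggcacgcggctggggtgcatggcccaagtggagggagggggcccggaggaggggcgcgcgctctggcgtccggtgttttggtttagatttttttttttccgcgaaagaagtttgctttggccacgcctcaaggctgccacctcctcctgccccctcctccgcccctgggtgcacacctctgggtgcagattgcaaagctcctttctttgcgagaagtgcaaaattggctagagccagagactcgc
Tef, upstream start: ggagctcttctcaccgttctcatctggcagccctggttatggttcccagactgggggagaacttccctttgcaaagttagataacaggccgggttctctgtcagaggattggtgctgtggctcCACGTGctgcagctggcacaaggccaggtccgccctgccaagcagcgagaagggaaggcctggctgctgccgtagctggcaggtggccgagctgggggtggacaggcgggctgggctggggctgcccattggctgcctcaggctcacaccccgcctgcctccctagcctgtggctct
Tef, downstream start: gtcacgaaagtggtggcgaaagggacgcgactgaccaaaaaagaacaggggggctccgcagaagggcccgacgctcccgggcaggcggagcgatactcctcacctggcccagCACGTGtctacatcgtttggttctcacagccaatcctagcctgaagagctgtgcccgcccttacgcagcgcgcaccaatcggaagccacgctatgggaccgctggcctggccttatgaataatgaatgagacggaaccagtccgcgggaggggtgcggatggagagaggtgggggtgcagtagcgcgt
Nfil3: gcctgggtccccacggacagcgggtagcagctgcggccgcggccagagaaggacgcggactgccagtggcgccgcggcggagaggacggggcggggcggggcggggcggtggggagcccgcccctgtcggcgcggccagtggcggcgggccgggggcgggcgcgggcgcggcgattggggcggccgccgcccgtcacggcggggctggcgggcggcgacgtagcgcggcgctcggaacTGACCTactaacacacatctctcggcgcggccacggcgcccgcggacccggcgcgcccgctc
Both Tef windows held 1 E-box, from base -127 to -122 of the upstream start and from -138 to -133 of the downstream start. The Nfil3 window held 1 AGGTCA on its reverse strand, from base -12 to -7. The windows of Dbp and Hlf (chr11:90390868-90391167, minus strand) held none of the 3 motifs, and no member window held the D-box. Of all 32851 promoter windows of this length, 7.15% held CACGTG, 16.3% held AGGTCA and 2.32% held TTANGTAA. These letters describe the windows only, and no binding was measured. Introns and sequence further upstream were not searched, so a window without a match does not show that the gene lacks the element.

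One library stood apart in depth. From the size of the smallest steps in 2222 genes with a single transcript, control high-fat offspring replicate 1 at ZT0 held about 201000 fragments, and the other 95 libraries held 32600000 to 59400000. In it 64.5% of genes were at 0, against 25.7% to 37.4% in the others. There 1 fragment of Dbp is worth 2.71 FPKM, so its Dbp value of 0 allows up to 8.12 FPKM (3 fragments, counting error only), and its Nfil3, Tef and Hlf values rest on about 1.06, 2.07 and 5.75 fragments. Tests that compare its arm are given with and without it. The other tests of schedule and diet in offspring take their spread from all offspring libraries, this one included. No fit of those tests left out this library alone. With it, 5 offspring libraries had a median correlation under 0.95 with their arm, the others being control high-fat replicate 2 at ZT12, shifted low-fat replicate 1 at ZT0 and at ZT6, and control low-fat replicate 2 at ZT0. All 5 hepatocyte markers were above 1 FPKM in the median library of every arm. Summed erythroid markers ran from 1150 to 2490 FPKM in fetal livers and from 5.08 to 67.8 FPKM in adult livers. In bulk tissue, fewer cells of a type and less RNA per cell cannot be told apart.

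In maternal liver all 4 genes had a different daily profile under the advancing schedule. Relative to control mothers, Dbp and Tef were lower and Nfil3 was higher in shifted mothers at ZT6, Dbp and Tef were higher and Nfil3 was lower at ZT18, and no difference was called at ZT12. The test of schedule by time (limma F test over all genes) called 4 of 4 members, Dbp at adjusted p = 0.00211, Tef at 8.47e-05, Hlf at 0.0185 and Nfil3 at 0.000501, where 1.69% of 10384 genes were called. The call of Hlf ended without control mother replicate 1 at ZT6 (adjusted p = 0.0516) and with cosine and sine terms (0.0619). All FPKM given here are values after scaling of the libraries.

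Dbp, named for its binding to the albumin promoter, had the widest swing. At ZT0 it was at 0.802, 4.95 and 25.0 FPKM in shifted mothers, against 0.118, 0.679 and 0.0978 FPKM in control mothers. The 3 shifted livers spread widely, and the lowest of them was still above all 3 control livers. The same 3 shifted libraries held Tef at 17.1, 29.1 and 46.4 FPKM and Nfil3 at 11.4, 6.38 and 6.58 FPKM, so the library with the least Dbp also had the least Tef and the most Nfil3. At ZT6 Dbp was at 0.347, 0.175 and 0.189 FPKM in shifted mothers and at 30.6, 19.0 and 2.14 FPKM in control mothers. Here the shifted livers were at their lowest of the day. Control replicates 1 and 2 were above every control liver at the other times, and replicate 3 was below those at ZT12. At ZT12 Dbp was at 19.2, 17.9 and 26.7 FPKM in shifted mothers and 12.6, 12.9 and 15.0 FPKM in control mothers. At ZT18 it was at 21.2, 20.7 and 15.2 FPKM in shifted mothers and 0.675, 0.675 and 0.694 FPKM in control mothers. The groups did not overlap at any of the 4 times, shifted above control at ZT0, ZT12 and ZT18 and below it at ZT6. Over all genes, 22.7%, 13.8%, 19.2% and 26.0% had groups that did not overlap at these times in turn.

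On the log2(FPKM + 1) scale, Dbp was higher in shifted mothers by 3.56 ± 0.70 (SE, adjusted p = 0.00628) at ZT18 and lower at ZT6, by -3.35 ± 0.70 (0.0493). The ZT6 call held without shifted replicate 1 or 3 at ZT0 or control replicate 3 at ZT6. It ended in the fits that left out 1 of the other 21 maternal libraries (adjusted p from 0.0573 to 0.224), with no filter on low FPKM (0.108) and with the replicate number as a block (0.0975). At ZT0 the difference was 2.36 ± 0.70 (0.0919), and it was called without shifted replicate 1 at ZT0 (3.29, adjusted p = 0.0139), without control replicate 3 at ZT6 (2.36, 0.0348) and with a pseudocount of 0.1 (3.91, 0.0306). The 3′ end of Dbp overlaps the 3′ end of Sphk2, a sphingosine kinase gene on the opposite strand (chr7:45709463-45718002). The libraries are stranded per the labels, but the strand setting of the counting is not given in the sources used here. Sphk2 was at 6.11, 5.03 and 16.8 FPKM in the 3 shifted mothers at ZT0, highest in the library with the most Dbp. At ZT6 Sphk2 was at 9.39 to 10.5 FPKM in shifted mothers, where Dbp was at 0.175 to 0.347 FPKM. The part of Sphk2 in the Dbp values was not tested.

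**Figure D1:**
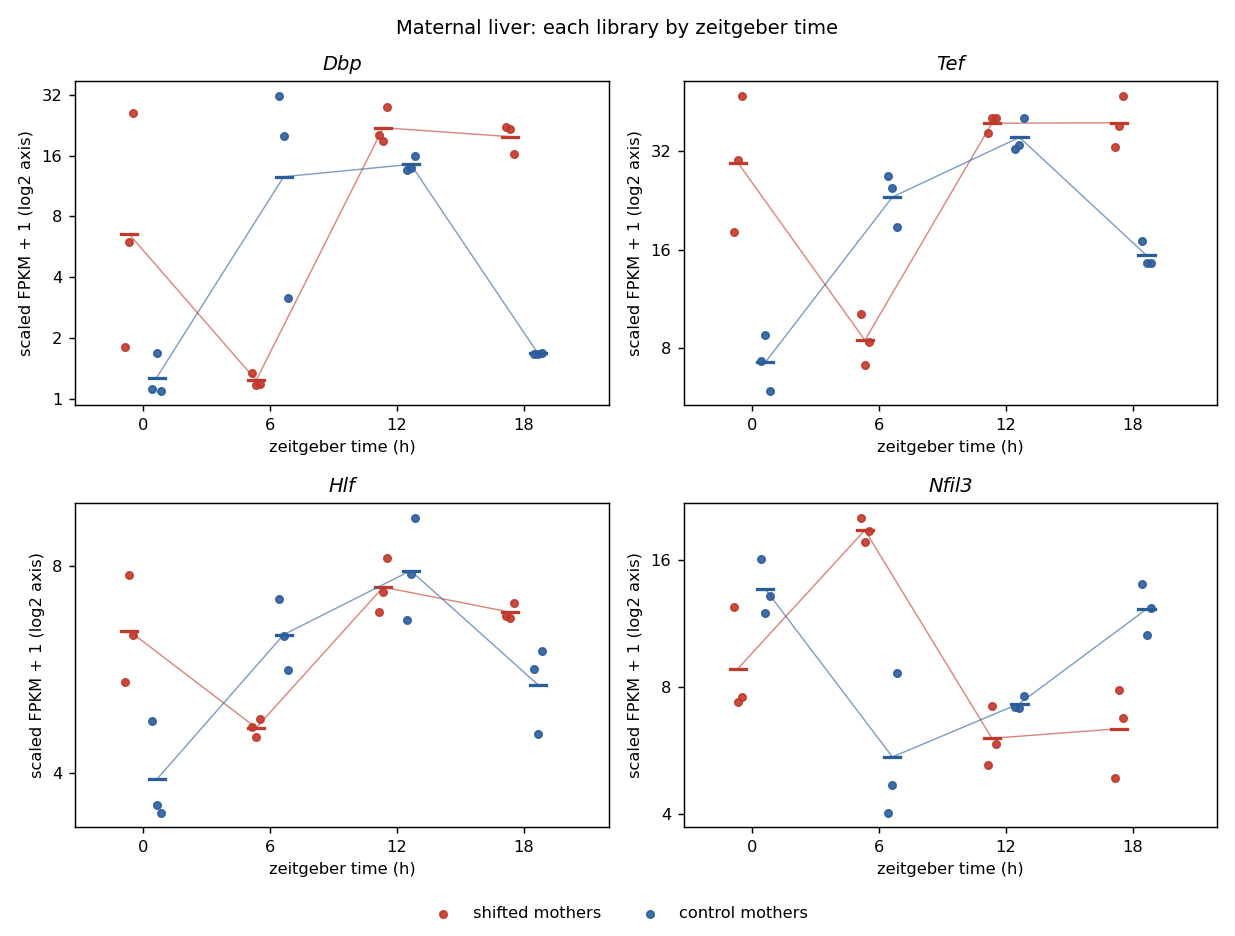
Scaled FPKM + 1 (log2 axis) of Dbp, Tef, Hlf and Nfil3 by zeitgeber time, with 1 point for each maternal liver library, shifted mothers in red to the left of control mothers in blue, and bars at the mean on the log scale (n = 3). Arms are drawn side by side only to keep points apart. At ZT6 the shifted livers held 0.175 to 0.347 FPKM of Dbp and 16.7 to 19.2 FPKM of Nfil3, where the control livers held 2.14 to 30.6 FPKM and 3.03 to 7.65 FPKM.

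Tef, thyrotroph embryonic factor, had a smaller daily swing than Dbp. At ZT0 the shifted mothers named above, at 17.1 to 46.4 FPKM, were all above control mothers at 6.27, 7.77 and 4.91 FPKM. At ZT6 Tef was at 9.17, 6.08 and 7.34 FPKM in shifted mothers and at 25.9, 23.8 and 17.7 FPKM in control mothers. At ZT12 the groups overlapped, with 35.4, 39.5 and 39.4 FPKM in shifted mothers and 31.6, 32.5 and 39.4 FPKM in control mothers. At ZT18 Tef was at 32.1, 37.3 and 46.4 FPKM in shifted mothers and at 16, 13.6 and 13.6 FPKM in control mothers. Tef thus rose at ZT0 by 2.03 ± 0.25 log2 (adjusted p = 0.00052), fell by 1.46 ± 0.25 at ZT6 (0.0158) and rose at ZT18 by 1.35 ± 0.25 (0.00362). The ZT6 call ended without shifted replicate 2 (adjusted p = 0.065) or 3 (0.0698) or control replicate 1 (0.0564) or 2 (0.0702) at that time. Averaged over the 4 times, Tef was the only member whose level differed between schedules, higher in shifted mothers by 0.52 ± 0.12 (0.0177), with 9 of 12 shifted libraries above the control mean at their time. In that test 8.39% of 10384 genes were called, 3.46% higher and 4.93% lower in shifted mothers. Dbp differed by 0.79 ± 0.35 (0.145), Hlf by 0.13 ± 0.08 (0.251) and Nfil3 by -0.01 ± 0.12 (0.951). Dbp was called there without shifted replicate 1 at ZT0 (1.03, adjusted p = 0.0446).

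Hlf, hepatic leukemia factor, had its lowest mean at the same times as Dbp and Tef, ZT6 in shifted and ZT0 in control mothers, and was highest at ZT12 in both. At ZT0 it was at 4.42, 6.74 and 5.34 FPKM in shifted mothers and at 3.76, 2.59 and 2.50 FPKM in control mothers. This was the only time at which its difference was called, 0.72 ± 0.15 log2 (adjusted p = 0.0221). That call ended without shifted replicate 2 at ZT0 (0.0969) or control replicate 2 (0.0857) or 3 (0.0935) at ZT0. At ZT6 Hlf was at 3.66, 3.51 and 3.78 FPKM in shifted mothers and 6.16, 5.33 and 4.65 FPKM in control mothers, without overlap, at -0.45 ± 0.15 (0.297). At ZT18 it was at 5.75, 5.72 and 6.07 FPKM in shifted mothers and 4.66, 3.55 and 5.02 FPKM in control mothers, at 0.35 ± 0.15 (0.201). The groups overlapped at ZT12, with 5.86 to 7.22 FPKM in shifted and 5.66 to 8.39 FPKM in control mothers.

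Nfil3, the repressor, moved against the 3 activators. At ZT6 it was at 19.2, 16.7 and 17.8 FPKM in shifted mothers and at 3.03, 3.68 and 7.65 FPKM in control mothers. At ZT18 it was at 3.86, 6.89 and 5.76 FPKM in shifted mothers and at 13.1, 9.62 and 11.3 FPKM in control mothers. Neither time showed any overlap of the groups. Nfil3 therefore rose by 1.79 ± 0.24 log2 at ZT6 (adjusted p = 0.0025) and fell by 0.94 ± 0.24 at ZT18 (0.0369). The ZT18 call ended without shifted replicate 1 (0.0872) or 3 (0.091) or control replicate 1 (0.167), 2 (0.0672) or 3 (0.0987) at that time. At ZT0 the groups overlapped, at 11.4, 6.38 and 6.58 FPKM in shifted mothers and 15.1, 11.0 and 12.2 FPKM in control mothers (-0.63 ± 0.24, adjusted p = 0.187). At ZT12 they overlapped at 4.24 to 6.22 and 6.15 to 6.64 FPKM in shifted and control mothers. At ZT0 2 of 4 members were called, both higher, where 1.4% of all genes were called (0.539% higher and 0.857% lower in shifted mothers). At ZT6 3 of 4 were called, 1 higher and 2 lower, where 0.25% of all genes were called (0.0867% higher and 0.164% lower). At ZT18 3 of 4 were called, 2 higher and 1 lower, where 3.29% of all genes were called (0.799% higher and 2.49% lower). At ZT12 limma called 0 of 4 members and 0.0% of all genes, and 611 of 10384 genes had an unadjusted p under 0.05.

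Fitted 24 h cosines placed every member later in shifted mothers, which on a 24 h circle is also earlier by the rest of the day. Dbp peaked at 16.4 ± 0.8 h (SE) in shifted and 9.4 ± 0.6 h in control mothers, a difference of 7.1 ± 1.0 h. Tef peaked at 17.3 ± 0.9 h in shifted and 11.0 ± 0.3 h in control mothers, and Hlf at 16.6 ± 1.1 h in shifted and 11.1 ± 0.6 h in control mothers. Nfil3 peaked at 4.7 ± 0.8 h in shifted and 20.5 ± 0.7 h in control mothers, a difference of 8.2 ± 1.1 h. No test was made of these differences, and with 4 times a day a peak is placed only roughly. Nfil3 peaked 12.3 ± 1.2 h after Dbp in shifted mothers and 11.2 ± 0.9 h after it in control mothers, so activator and repressor kept opposite phases in both. These errors combine those of both peaks as if independent. Both genes were measured in the same libraries, so the errors of the spacing are only rough. Amplitudes (peak to mean, log2) of Dbp were 2.19 ± 0.48 and 2.28 ± 0.35, of Tef 1.13 ± 0.26 and 1.18 ± 0.10, of Nfil3 0.83 ± 0.18 and 0.74 ± 0.14, and of Hlf 0.30 ± 0.09 and 0.52 ± 0.09, in shifted and control mothers.

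Within shifted mothers alone, time of day changed 3 of 4 members, Dbp (adjusted p = 0.04), Tef (0.0134) and Nfil3 (0.021) but not Hlf (0.128), where 0.645% of 10072 genes were called. None of the 3 calls held with no filter on low FPKM (adjusted p from 0.0585 to 0.14) or with cosine and sine terms (0.396 to 0.412). That of Dbp held only in the fits without replicate 1 or 3 at ZT0 and ended in the other 10 that left out 1 library (0.0562 to 0.247). That of Tef ended without replicate 1 (0.104), 2 (0.0847) or 3 (0.152) at ZT6. That of Nfil3 ended without any 1 of the libraries at ZT6 (0.0874 to 0.188) or without replicate 1 (0.0654) or 3 (0.0563) at ZT12. Within control mothers time of day changed 4 of 4, Dbp (0.0111), Tef (0.000265), Hlf (0.0231) and Nfil3 (0.0197), where 4.34% of 10070 genes were called. The call of Hlf there ended with no filter (0.0508) and without replicate 2 or 3 at ZT0 or at ZT12 (0.068 to 0.0866), and that of Nfil3 without replicate 2 at ZT6 (0.0593) or replicate 2 (0.0518) or 3 (0.0513) at ZT12.

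**Figure D2:**
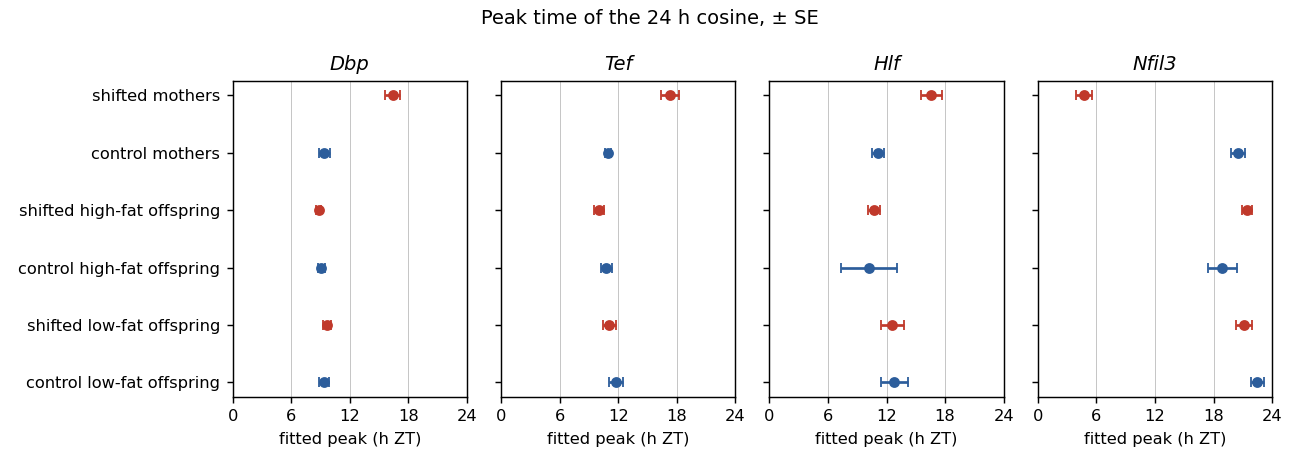
Peak time of the fitted 24 h cosine (hours of zeitgeber time, ± SE of the fit) of each member in the 6 adult arms, shifted arms in red above their control arms in blue. In shifted mothers Dbp, Tef and Hlf sit at 16.4 to 17.3 h and Nfil3 at 4.7 h, while in every offspring arm the activators sit at 8.8 to 12.8 h and Nfil3 at 18.9 to 22.5 h. In control high-fat offspring the Hlf amplitude was 0.15 ± 0.12, so its peak (10.2 ± 2.9 h) is hardly placed. Nfil3 at 18.9 h there includes the library of low depth, and lay at 20.3 h without it.

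Genes that act on the members or carry D-boxes were read beside them, from lists chosen with earlier results of these data known. Of 8 regulators of the members, 7 were tested and 4 had a daily profile that differed between maternal schedules, where 1.69% of all genes were called. They were led by Npas2 (a partner of BMAL1, adjusted p = 1.66e-06), Arntl (8.47e-05) and Ciart (a repressor of CLOCK and BMAL1, 0.004). At ZT6 Npas2 rose by 1.26 ± 0.13 log2 and Arntl by 2.02 ± 0.31, as Nfil3 did. At ZT18 Arntl fell by 2.45 ± 0.31, Npas2 fell by 0.92 ± 0.13 and Ciart rose by 2.53 ± 0.37. The median difference of the 7 tested regulators was 0.34 at ZT6 and -0.37 at ZT18, where all genes had medians of 0.01 and 0.01.

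Of 8 clock genes with D-boxes, 7 were tested and 5 differed in profile, led by Per2 (adjusted p = 0.002), Per3 (0.00786) and Cry1 (0.0193). That test, also used for the metabolic genes below, called 1.69% of all genes. Per3 went with the activators, higher in shifted mothers at ZT0 by 2.29 ± 0.45 log2 and at ZT18 by 1.70 ± 0.45. Nr1d2, a REV-ERB gene, was higher at ZT18 by 2.45 ± 0.44, and Cry1 was lower there by -1.42 ± 0.31. Over the 4 times in turn the median of the 7 was 0.90, -0.94, 0.22 and 1.18, where the medians of all genes lay between -0.02 and 0.01. In the same order 2, 0, 0 and 3 of the 7 were called, where 1.4%, 0.25%, 0.0% and 3.29% of all genes were called. None of the 7 was thus called at ZT6. Of 10 metabolic genes tied to the factors, all were tested and 3 differed in profile, Alas1 (the first enzyme of heme synthesis, 0.0059), Por (the electron donor of cytochromes P450, 0.00873) and Cyp2b10 (a drug-metabolizing P450, 0.0367). Alas1 averaged 145 ± 67, 28.4 ± 11, 244 ± 16 and 237 ± 70 FPKM at ZT0, ZT6, ZT12 and ZT18 in shifted mothers, against 45.1 ± 6.7, 73.3 ± 20, 303 ± 83 and 152 ± 40 FPKM in control mothers (SD, n = 3). Like Tef, it was lowest at ZT6 in shifted and at ZT0 in control mothers. The median of the 10 was 0.49, -0.46, -0.37 and 0.30 at ZT0, ZT6, ZT12 and ZT18, and 2, 0, 0 and 1 of them were called.

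In adult male offspring the means of Dbp, Tef and Hlf were lowest at ZT0 in all 4 arms, with or without the shallow library, and that of Nfil3 was lowest at ZT6 or ZT12. With all libraries and the settings given under processing, no test of the maternal schedule called a member within either diet. That does not show that the profiles were alike, and some other settings called Dbp or Nfil3 in high-fat offspring (below). Dbp at ZT0 was at 0.302, 0.189 and 0.234 FPKM in shifted high-fat and at 0, 0.229 and 0.397 FPKM in control high-fat offspring, the 0 being the shallow library. At that time it was at 0.266, 0.238 and 0.120 FPKM in shifted low-fat and at 0.155, 0.317 and 0.289 FPKM in control low-fat offspring. Outside the shallow library, which cannot place Dbp, all were at or under 0.397 FPKM. At ZT6 Dbp was at 38.3, 43.5 and 39.4 FPKM in shifted high-fat and at 61.7, 67.9 and 51.4 FPKM in control high-fat offspring. On the low-fat diet it was then at 9.26, 40.3 and 31.7 FPKM in shifted and at 31.4, 12.5 and 14.2 FPKM in control offspring. The high-fat groups did not overlap at ZT6, and neither did they at ZT18, where shifted offspring held 0.665 to 1.51 FPKM and control offspring 1.75 to 2.51 FPKM. Of all genes 44.2% and 34.0% had high-fat groups that did not overlap at these times.

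Nfil3 was high at ZT0 and low at ZT6. At ZT0 it was at 24.4, 27.4 and 22.4 FPKM in shifted high-fat offspring and at 22.7 and 20.2 FPKM in control high-fat offspring outside the shallow library. It was then at 26.6, 17.5 and 23.2 FPKM in shifted low-fat and at 20.3, 17.7 and 20.8 FPKM in control low-fat offspring. By ZT6 it was down to 5.73 to 7.34 FPKM in shifted high-fat and 3.20 to 7.49 FPKM in control high-fat offspring, with 2.99, 4.47 and 5.01 FPKM in shifted low-fat and 6.10, 7.60 and 7.99 FPKM in control low-fat offspring. At ZT6 the low-fat groups did not overlap, shifted below control, and 37.8% of all genes had low-fat groups that did not overlap then. Tef at ZT6 was at 45.8, 48.7 and 39.6 FPKM in shifted high-fat and at 39.0, 44.8 and 37.6 FPKM in control high-fat offspring. It was then at 14.9, 42.3 and 40.8 FPKM in shifted low-fat and at 28.9, 18.1 and 18.3 FPKM in control low-fat offspring. The 3 control high-fat livers lay above the 3 control low-fat livers in both Dbp and Tef at that time, when 24.2% of all genes had groups of these arms that did not overlap. The low shifted low-fat value is that of replicate 1, which stood apart and was also lowest in Dbp, at 9.26 FPKM.

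The ratio of the highest to the lowest time mean of Dbp was 167 in shifted high-fat offspring. In control high-fat offspring it was 193 without the shallow library and 289 with it. On the low-fat diet it was 149 in shifted and 76.2 in control offspring. For Tef the ratio was 6.90 in shifted high-fat offspring, 7.49 without and 9.42 with that library in control high-fat offspring, 8.37 in shifted low-fat and 6.11 in control low-fat offspring. Hlf kept ratios of 1.36 to 2.51 and Nfil3 of 3.04 to 5.40 in the same 4 arms, the shallow library left out.

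Time of day changed Dbp and Tef in all 4 offspring arms. In shifted high-fat offspring 4 of 4 members were called (Dbp 9.11e-09, Tef 8.4e-06, Hlf 0.00798 and Nfil3 0.000336, adjusted p), where 30.1% of 10079 genes were called. In control high-fat offspring 2 of 4 were called, Dbp (7.85e-05) and Tef (0.00168) but not Hlf (0.645) or Nfil3 (0.491), with 0.725% of 10072 genes. Without the shallow library the values there were 0.000251, 0.000918, 0.751 and 0.0911 for Dbp, Tef, Hlf and Nfil3, with 1.53% of genes called. Nfil3 was called (0.0441) when both control high-fat libraries that stood apart were left out. The shallow library was at 2.82 FPKM of Nfil3, and its 2 partners at ZT0 at 22.7 and 20.2 FPKM.

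On the low-fat diet 3 of 4 members changed with time in shifted offspring (Dbp 0.000478, Tef 0.00171 and Nfil3 0.00381, adjusted p), with Hlf at 0.0936 and 24.7% of 10240 genes called. In control low-fat offspring 3 of 4 were called (Dbp 0.00224, Tef 0.00118 and Nfil3 0.0167), with Hlf at 0.0668 and 15.5% of 10124 genes called. Hlf was called in shifted low-fat offspring without replicate 1 at ZT6 (0.0134), a library that stood apart at 2.64 FPKM of Hlf against 7.31 and 10.9 FPKM in its partners. It was called in control low-fat offspring without replicate 1 at ZT0 (0.0292).

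**Figure D3:**
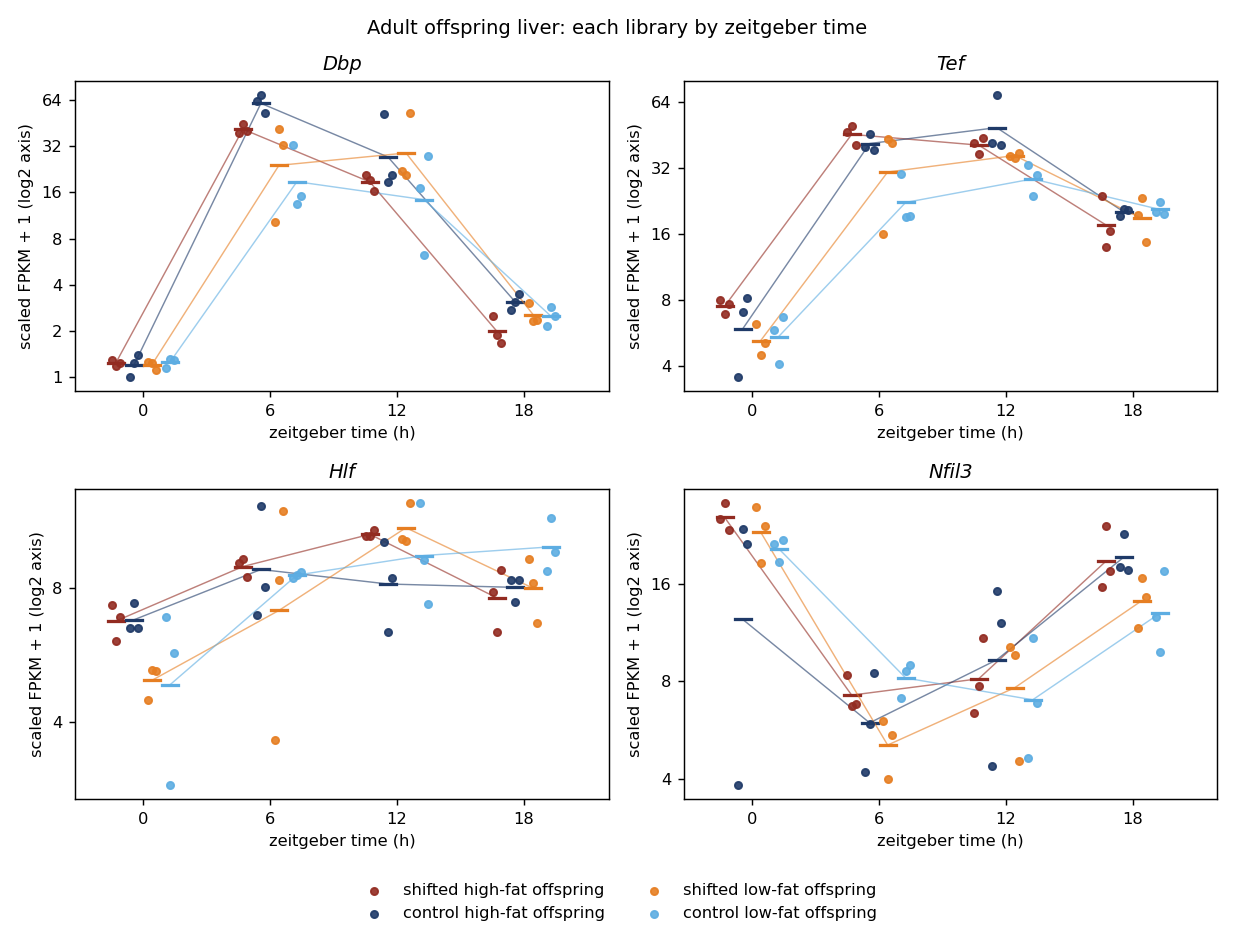
Scaled FPKM + 1 (log2 axis) of the members by zeitgeber time in the 48 libraries of adult male offspring, with 1 point a library and bars at the mean on the log scale (n = 3), drawn side by side only to keep arms apart. Outside the shallow library Dbp is at or under 0.397 FPKM at ZT0 in all 4 arms, and the low Nfil3 point of control high-fat offspring at ZT0, 2.82 FPKM, is the shallow library.

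For the maternal schedule in high-fat offspring, 0 of 4 members differed in level where 48.1% of 10883 genes were called by limma (28.3% higher and 19.8% lower in shifted offspring). Dbp was nearest, lower in shifted offspring by -0.42 ± 0.20 log2 (95% interval -0.84 to -0.01, adjusted p = 0.0844), with 10 of 12 libraries below the control mean at their time. Without the shallow library it stood at -0.46 (0.0668). It was called without all libraries that stood apart (-0.52, adjusted p = 0.0202) and in a fit of only these 2 arms (-0.42, 0.0128). Intervals of the other differences were -0.28 to 0.29 for Tef, -0.20 to 0.35 for Hlf and -0.17 to 0.71 for Nfil3, and without that library -0.35 to 0.18, -0.22 to 0.35 and -0.28 to 0.41. In low-fat offspring 0 of 4 differed in level, with 0.00919% of genes called and an interval for Dbp of -0.08 to 0.75. The test of schedule by time called 0 of 4 in high-fat offspring (adjusted p from 0.551 to 0.81, and from 0.94 to 0.967 without the shallow library), where it called 0 of all 10883 genes (872 reached an unadjusted p under 0.05). It called 0 of 4 in low-fat offspring (adjusted p from 0.557 to 0.745), with 0.110% of genes called. There Tef was called (0.0234) when the libraries that stood apart were left out.

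Fitted peaks of Dbp lay close together in offspring and those of Nfil3 less so. Dbp peaked at 8.8 ± 0.3 h in shifted high-fat, 9.1 ± 0.4 h in control high-fat, 9.7 ± 0.4 h in shifted low-fat and 9.4 ± 0.5 h in control low-fat offspring. The differences between schedules were -0.3 ± 0.5 h on the high-fat and 0.3 ± 0.6 h on the low-fat diet, smaller than their errors, against 7.1 ± 1.0 h in mothers. Nfil3 peaked at 21.4 ± 0.5 h in shifted high-fat offspring and at 18.9 ± 1.5 h in control high-fat offspring (20.3 ± 1.0 h without the shallow library). It peaked at 21.1 ± 0.8 h in shifted low-fat and 22.5 ± 0.7 h in control low-fat offspring. The Nfil3 differences between schedules were 2.4 ± 1.6 h on the high-fat and -1.3 ± 1.1 h on the low-fat diet. That between diets in offspring of control mothers was -3.5 ± 1.7 h. Those that use control high-fat offspring include the shallow library, which cannot place Nfil3, and were not computed without it. No test was made of these differences.

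The high-fat diet raised Dbp and Tef in offspring of control mothers. Dbp averaged 23.0 ± 27 FPKM in control high-fat and 9.27 ± 11 FPKM in control low-fat offspring, and Tef 28.6 ± 19 and 18.4 ± 9.6 FPKM in the same arms (SD over all times, n = 12). The log2 differences were 0.72 ± 0.20 for Dbp (adjusted p = 0.0172, 10 of 12 libraries above the low-fat mean at their time) and 0.44 ± 0.14 for Tef (0.0322, 9 of 12), where 14.6% of 10883 genes were called (6.59% higher and 7.99% lower on the high-fat diet). Without the shallow library they were 0.75 (0.0146) and 0.53 (0.00602). Dbp was not called with a pseudocount of 0.1 (0.0725). The call of Tef ended without the filter (0.0553), with values as deposited (0.0609) and in 8 of 24 fits that left out 1 library. These were control low-fat replicate 2 at ZT0 (0.0589), replicates 2 (0.0629) and 3 (0.0616) at ZT6, replicate 2 at ZT12 (0.0621) and replicate 3 at ZT18 (0.0536), and control high-fat replicate 3 at ZT0 (0.0561), replicate 2 at ZT6 (0.0568) and replicate 2 at ZT12 (0.0797). Hlf (0.00 ± 0.14) and Nfil3 (-0.05 ± 0.22) had intervals of -0.27 to 0.28 and -0.49 to 0.39. Without the shallow library Hlf was at 0.01 ± 0.14 and Nfil3 at 0.16 ± 0.17, with intervals of -0.27 to 0.3 and -0.18 to 0.51.

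In offspring of shifted mothers the diet changed 0 of 4 levels, with 23.8% of genes called (13.3% higher and 10.5% lower on the high-fat diet). Dbp averaged 14.9 ± 17 FPKM in shifted high-fat and 14.9 ± 18 FPKM in shifted low-fat offspring, a difference of -0.04 ± 0.20 log2 (95% interval -0.46 to 0.37). Tef differed by 0.29 ± 0.14 (adjusted p = 0.133). The difference between the 2 diet effects was called for Dbp, at -0.76 ± 0.29 (adjusted p = 0.0499, and 0.0384 without the shallow library), where 24.5% of genes were called (15.1% higher and 9.4% lower). This call stood just inside the threshold. It ended with a pseudocount of 0.1 (0.129), without the filter (0.0901), with values as deposited (0.0812), with upper quartile scaling (0.0551), with a replicate block (0.0542) and in 36 of 48 fits that left out 1 library (adjusted p up to 0.0858). The 12 libraries without which it held were, for control low-fat offspring, replicate 1 at ZT6 and replicates 1 and 3 at ZT12, and, for control high-fat offspring, replicate 1 at ZT0 and replicates 2 and 3 at ZT12. For shifted low-fat offspring they were replicate 3 at ZT0, replicate 1 at ZT6, replicates 1 and 2 at ZT12 and replicate 2 at ZT18, and for shifted high-fat offspring replicate 1 at ZT18. Diet by time called 0 of 4 members in offspring of shifted mothers (adjusted p from 0.4 to 0.987) and of control mothers (0.234 to 0.409, and 0.344 to 0.537 without the shallow library), with 0.119% and 0.0276% of genes called.

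The lists were mixed in the offspring. In shifted against control high-fat offspring, 4 of 8 regulators were higher and none lower (Bhlhe40 by 0.68 ± 0.17 log2, Clock by 0.55 ± 0.15 and Cry2 by 0.25 ± 0.10, repressors and an activator of the clock), with a list median of 0.20 against 0.03 over all genes. In that test 48.1% of all genes were called (28.3% higher and 19.8% lower), so the counts of these lists say little about them. Of 7 D-box clock genes 2 were higher, Rora by 0.63 ± 0.15 and Cry1 by 0.39 ± 0.13. Of 9 metabolic genes 2 were higher, Ppara (a receptor for fatty acids) by 0.65 ± 0.13 and Pdxk by 0.37 ± 0.11, and 1 was lower, Cyp2a5 by -0.50 ± 0.18. With the high-fat diet in offspring of control mothers, 1 gene of each of these 3 lists was called, Ciart by 0.90 ± 0.21, Per3 by 0.47 ± 0.16 and Cyp2a5 by 0.56 ± 0.18, where 14.6% of all genes were called. Without the shallow library the same genes of these lists were called in both comparisons, with Bhlhe40 at 0.59 ± 0.16, Clock at 0.49 ± 0.15 and Cry1 at 0.26 ± 0.10 between schedules, and Ciart at 0.93 ± 0.22 between diets. These 2 comparisons share the control high-fat libraries.

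In fetal liver the members were low, and no change with time of day was called. Dbp ran from 0.143 to 0.430 FPKM in shifted and from 0.243 to 0.553 FPKM in control fetuses, under the filter of 1 FPKM, and was not tested there. Of 12 shifted libraries 11 lay below the control mean at their time, a count of values with no test. Tef ran from 5.79 to 10.7 FPKM in shifted and 5.18 to 11.0 FPKM in control fetuses, Hlf from 3.17 to 4.52 and 2.86 to 3.99 FPKM, and Nfil3 from 2.71 to 7.71 and 3.06 to 9.63 FPKM. Time of day called 0 of 3 members in shifted fetuses (adjusted p from 0.832 to 0.858) and in control fetuses (0.741 for each). No gene at all was called in either arm by limma, and 593 of 11693 in shifted and 529 of 11777 in control fetuses were under an unadjusted p of 0.05. For Tef in control fetuses the unadjusted p was 0.00591, with means of 5.67 ± 0.60, 8.47 ± 0.59, 8.95 ± 1.9 and 7.45 ± 0.50 FPKM at ZT0, ZT6, ZT12 and ZT18. For Hlf there it was 0.0332. The schedule changed 0 of 3 levels (Tef -0.04 ± 0.08, Hlf 0.07 ± 0.05 and Nfil3 -0.28 ± 0.16 log2), with 3.66% of 12009 genes called. Schedule by time called 0 of 3 and 0 of 12009 genes, and 419 genes were under an unadjusted p of 0.05, Tef (0.0175) and Hlf (0.0132) among them. Tef and Hlf lay higher in shifted than in control fetuses at ZT0 and lower at ZT6, without overlap, where 10.9% and 12.7% of all genes had groups that did not overlap. Nfil3 also lay lower in shifted fetuses at ZT6, and at ZT18, without overlap. At ZT18 39.5% of all genes had groups that did not overlap.

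Averaged over the 4 times, all 4 genes were lower in fetal than in maternal liver under both schedules. On a scale set over both arms, Dbp had a median of 0.190 FPKM in shifted fetuses and 19.9 FPKM in shifted mothers, and of 0.288 FPKM in control fetuses and 1.75 FPKM in control mothers. At single times the groups could overlap. At ZT0 Dbp was at 0.268, 0.201 and 0.324 FPKM in control fetuses and 0.145, 0.831 and 0.12 FPKM in control mothers. At ZT6 Nfil3 was at 5.34, 7.01 and 4.6 FPKM in control fetuses and 3.79, 4.61 and 9.44 FPKM in control mothers. The difference in log2(FPKM + 1) was -2.87 ± 0.27 for Dbp, -2.10 ± 0.12 for Tef, -0.85 ± 0.06 for Hlf and -1.11 ± 0.14 for Nfil3 in the shifted schedule. In the control schedule it was -1.98 ± 0.25, -1.57 ± 0.08, -0.81 ± 0.07 and -0.87 ± 0.14 for the same genes. Adjusted p ran from 1.67e-13 to 6.42e-06 over these 8 tests, in which 85.0% of 12069 and 86.3% of 12092 genes were called for the shifted and control schedule, so a call there says little about the members. Lower in fetuses were 35.4% and 37.0% of genes, and higher were 49.6% and 49.2%. Of 10 metabolic genes tied to the factors 10 were lower in fetuses under both schedules, with medians of -3.57 in each, where all genes had medians of 0.17 and 0.14. Cyp2a4 and Cyp2a5 fell by 8.52 and 6.49 log2 in shifted and by 7.79 and 5.87 in control fetuses, though reads may be shared between these near-identical genes. Arntl was the exception among 7 regulators, higher in fetuses by 0.83 ± 0.16 in the shifted and 0.21 ± 0.09 in the control schedule. Erythroid markers summed to a median of 1700 FPKM in shifted fetuses and 12.2 FPKM in shifted mothers, and to 1500 FPKM in control fetuses and 7.88 FPKM in control mothers. Their part in these differences was not tested.

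**Figure D4:**
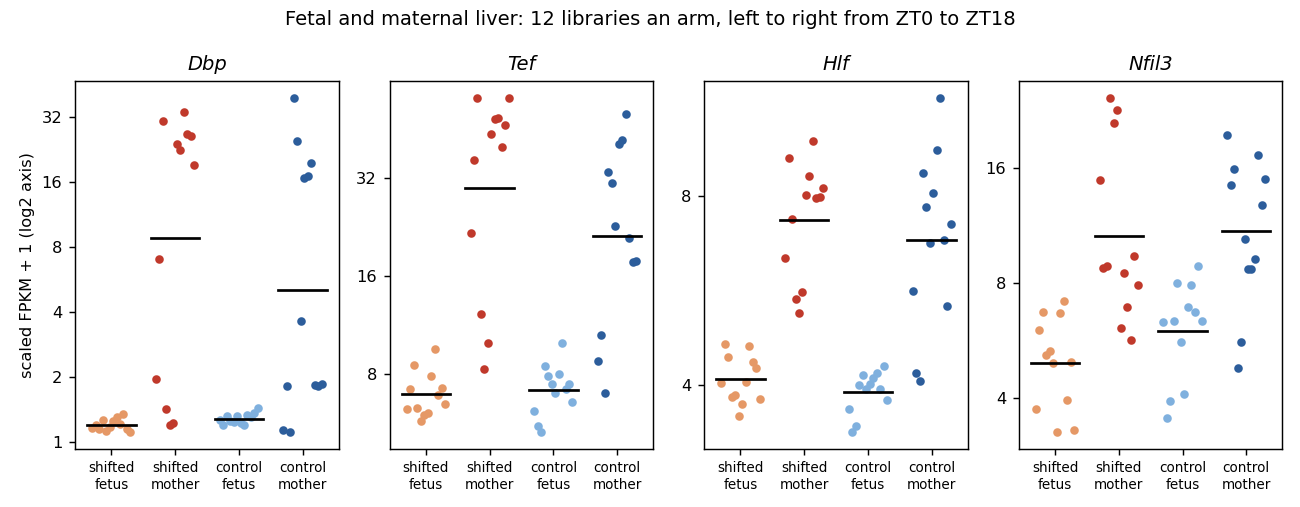
Scaled FPKM + 1 (log2 axis) of the members in fetal and maternal liver, each fetal arm to the left of its maternal arm, with 1 point a library from ZT0 at the left to ZT18 at the right and bars at the mean on the log scale (n = 12). Values were scaled over the fetal and maternal libraries of a schedule, so they differ slightly from those scaled within a stage. Dbp stays between 0.118 and 0.445 FPKM in all fetuses.

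Ordered by the mean of 12 libraries, Dbp was highest in control high-fat offspring (23.0 ± 27 FPKM, SD), then in shifted high-fat (14.9 ± 17) and shifted low-fat offspring (14.9 ± 18), shifted mothers (12.7 ± 11), control low-fat offspring (9.27 ± 11), control mothers (7.93 ± 10), control fetuses (0.357 ± 0.089) and shifted fetuses (0.257 ± 0.088). Tef ran from 28.8 ± 15 FPKM in shifted mothers, 28.6 ± 19 in control high-fat, 27.0 ± 17 in shifted high-fat and 22.6 ± 15 in shifted low-fat offspring to 19.4 ± 11 in control mothers and 18.4 ± 9.6 in control low-fat offspring, then 7.64 ± 1.6 in control and 7.38 ± 1.5 in shifted fetuses. Nfil3 was highest in shifted high-fat offspring (14.1 ± 8.4 FPKM) and lowest in shifted fetuses (5.05 ± 1.7 FPKM), and Hlf in the same arm (7.48 ± 1.6 FPKM) and in control fetuses (3.55 ± 0.36 FPKM). Neighbours among the adult arms differed by less than their spread over the day. Values of different stages were scaled separately, which limits this order across stages.

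Over the 16 group means of the offspring, Dbp and Tef had a Pearson correlation of 0.89 and Dbp and Nfil3 one of -0.90 (-0.94 without the shallow library). Hlf correlated less, at 0.64 with Dbp and 0.82 with Tef. Over the 8 maternal groups the values were 0.94 for Dbp with Tef, 0.92 for Dbp with Hlf and -0.95 for Dbp with Nfil3. Among 9271 genes, those most like Dbp over the 16 groups were Nr1d2 (0.93), Pdk2 (a kinase of pyruvate dehydrogenase, 0.92) and Slc2a5 (a fructose transporter, 0.92), and the most opposed was Arntl (-0.98). For Tef they were Per3 (0.98), Upp2 (a uridine phosphorylase, 0.95) and Coq10b (0.94), with Leprotl1 lowest (-0.93). Among the genes most like Nfil3 were Arntl (0.94) and Smarcd1 (a chromatin remodeller subunit, 0.92), with Gch1 (the first enzyme of tetrahydrobiopterin synthesis) lowest (-0.92). Hlf was most like Bnip3, Akr1c12 and Cyp2e1 (0.90 each), with Rela, an NF-kappaB subunit, lowest (-0.90). In the 8 maternal groups, which were not used for this ranking, Arntl kept -0.99 with Dbp and 0.93 with Nfil3 and Per3 kept 0.99 with Tef. Pdk2 (0.28 with Dbp), Gch1 (-0.09 with Nfil3) and Rela with Hlf did not keep theirs. The points of each correlation share libraries and times of day, and no test was made.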

How the data were processed

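Poly(A) RNA of liver was sequenced in 96 stranded libraries per the labels, in 32 groups of 3. The authors deposited FPKM in 8 tables, and the submitters' processing notes name TopHat2 2.1.1, Cufflinks 2.2.1 and mm10. The sources used here do not give the annotation, strand setting or filters. Symbols on several entries were left out (817 entries of 24883). Within a stage (for fetus against mother, over both arms) libraries were divided by median-of-ratios factors and analysed as log2(FPKM + 1), keeping genes with at least 1 FPKM in 3 libraries. Models with 1 mean per group were fitted across all genes in limma 3.58.1 (R 4.3.3), time of day in the 12 libraries of an arm, other tests in all libraries of a stage. The threshold was a Benjamini-Hochberg adjusted p of 0.05. Only the tests of schedule level and of schedule by time in mothers were run on simulated data, which held no daily rhythm common to both arms. Depth was estimated from the deposited FPKM, with GENCODE M21 lengths, as 1000 divided by the product of length and the smallest step. Named genes are the 4 members, the 3 genes most like and the 1 least like each over the offspring groups, and up to 3 called genes of smallest p in each list; 1 gene that this rule names is not reported here. The members and lists were chosen with earlier results of these data known.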

Additional observations from a re-analysis of the deposited data

Results flagged for a closer look

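In mothers the daily profile of each member differed between the schedules by the test of schedule by time, which compares the same times in both arms. The adjusted p was 0.00211 for Dbp, 8.47e-05 for Tef, 0.0185 for Hlf and 0.000501 for Nfil3, with 3 libraries in each of the 8 groups, where 1.69% of all genes were called. The call of Hlf ended without control mother replicate 1 at ZT6 (0.0516) and with cosine and sine terms (0.0619). At ZT6 all 3 shifted libraries lay below the control libraries for Dbp, Tef and Hlf and above them for Nfil3, and at ZT18 all 3 lay above them for Dbp, Tef and Hlf and below them for Nfil3. Over all genes, 13.8% at ZT6 and 26.0% at ZT18 had groups that did not overlap.

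In offspring the diet effect on the level of Dbp differed between the maternal schedules at an adjusted p of 0.0499, with a log2 difference of -0.04 in offspring of shifted mothers and 0.72 in offspring of control mothers. Without the library of about 201000 fragments, which is in the control high-fat arm, the adjusted p was 0.0384. The call ended with a pseudocount of 0.1 (0.129), without the filter (0.0901), with values as deposited (0.0812), with upper quartile scaling (0.0551), with a replicate block (0.0542) and in 36 of 48 fits that left out 1 library. Of all genes 24.5% were called in this test.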

How the results depend on the processing

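Of 104 tests of a member, 82 kept their side of the threshold under all alternatives run, and no called difference changed sign. Counts below are of members called out of 4. In shifted mothers time of day called 3, against 0 without the filter on low values and 0 with cosine and sine terms, and 0 to 3 with 1 library left out. The same range was 2 to 4 in control mothers, 1 to 2 for the schedule level in mothers, 1 to 3 at ZT0 and 1 to 3 at ZT6. In low-fat offspring schedule by time called 1 without the libraries that stood apart, against 0. In high-fat offspring the schedule level called 1 with values as deposited (Nfil3), 1 without the libraries that stood apart (Dbp) and 1 in a fit of only the 2 arms (Dbp), against 0. Diet in offspring of shifted mothers called 1 with values as deposited (Tef), against 0. In offspring of control mothers it called 1 with a pseudocount of 0.1, 1 without the filter and 1 with values as deposited, against 2, and 1 to 2 with 1 library left out. Schedule by diet called 0 with a pseudocount of 0.1, 0 without the filter, 0 with values as deposited, 0 with upper quartile scaling and 0 with a replicate block, against 1, and 0 to 1 with 1 library left out. The cause of these changes was not tested.

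The replicate block called 2 members by time of day in shifted mothers (3 without it), 3 in control mothers (4), 2 at ZT6 (3) and 0 for schedule by diet (1), and moved no other count. Same-numbered libraries of different groups deviated from their group means with median correlations of -0.0499 in mothers, 0.0429 in fetuses and -0.00189 in offspring. Single pairs ran from -0.579 to 0.684 in mothers and from -0.735 to 0.79 in fetuses. These medians therefore cannot show whether the numbers pair libraries. By time of day the block lost the calls of Dbp in shifted mothers (adjusted p = 0.052, limma) and Hlf in control mothers (0.0559). It also lost those of Dbp at ZT6 (0.0975) and for schedule by diet (0.0542).

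Differences that were not called changed sign near 0. Without the libraries that stood apart Tef was at -0.02 (schedule, high-fat) and Nfil3 at 0.06 (diet, control mothers), and as deposited Tef was at 0.02 (schedule by diet). With 1 library left out the log2 ranges were -0.07 to 0.07 for Nfil3 (schedule, mothers), -0.20 to 0.05 for Hlf (ZT12, mothers), -0.08 to 0.01 for Tef (fetuses), -0.18 to 0.04 for Hlf and -0.14 to 0.03 for Nfil3 (schedule, low-fat), -0.09 to 0.07 for Tef (schedule, high-fat), -0.20 to 0.07 for Dbp (diet, shifted mothers) and -0.17 to 0.16 for Nfil3 (diet, control mothers).

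Counts of all genes called moved by over 1.5 times in these cases. Time of day in shifted mothers called 65 genes, 16 without the filter and 1 with cosine and sine terms. In control mothers it called 437, and 248 with the block. In control high-fat offspring it called 73, and 406 without the libraries that stood apart. Schedule by time in mothers called 175, and 86 with cosine and sine terms. By time in mothers, values as deposited called 270 at ZT0 (145) and 842 at ZT18 (342), a pseudocount of 0.1 called 17 at ZT6 (26), and 1 gene was called at ZT12 without the filter (0). The schedule level in fetuses called 440, and 190 as deposited. In low-fat offspring schedule by time called 12, and from 1 to 248 under the alternatives, and the schedule level 1, and up to 4. In high-fat offspring schedule by time called 0, and 2 without the libraries that stood apart. Diet by time called 13 in offspring of shifted mothers, and from 0 to 110, and 3 in offspring of control mothers, and from 0 to 126. Diet level in offspring of control mothers called 1587, and 905 in a fit of only the 2 arms.

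Leaving out each library in turn for the fitted peaks, and the shallow library for the correlations and the lists, was chosen after seeing the data. Peaks then lay at 15.6 to 17.7 h for the 3 activators and 4.2 to 5.2 h for Nfil3 in shifted mothers, and at 8.9 to 11.4 h and 20.1 to 21 h in control mothers.

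At about 201000 fragments, 1 library cannot place Dbp or Nfil3. FPKM carry no counts, so the depth of all libraries is an estimate and counting error of low values is not in the tests.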

Other observations

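Some other bZIP factors of liver were lower in shifted arms. Cebpd, an acute-phase factor, fell by 0.43 ± 0.07 log2 in shifted mothers (adjusted p = 0.00257, limma), by 0.77 ± 0.12 in shifted fetuses (0.00258) and by 0.34 ± 0.12 in shifted high-fat offspring (0.0219), each against its control arm. Cebpb fell by 0.59 ± 0.14 in shifted fetuses (0.029) and by 0.78 ± 0.23 in shifted high-fat offspring (0.00573), and Atf4, the factor of the integrated stress response, fell by 0.56 ± 0.14 in shifted high-fat offspring (0.00117). Of the 7 genes of the list, all 7 tested in each comparison, 1 was called in mothers, 2 in fetuses, 0 in low-fat and 3 in high-fat offspring, all lower. Of all genes 8.39%, 3.66%, 0.00919% and 48.1% were called in these comparisons in turn, and 4.93%, 1.64%, 0.0% and 19.8% were lower, so the count in high-fat offspring says little about the list. The list medians were -0.16, -0.31, 0.0 and -0.15, where all genes had medians of 0.0, -0.01, -0.01 and 0.03. On the high-fat diet in offspring of control mothers Cebpb and Cebpd were higher by 1.07 ± 0.23 and 0.65 ± 0.12, where 14.6% of all genes were called. Without the shallow library Cebpb, Cebpd and Atf4 were at -0.86, -0.44 and -0.61 between schedules on the high-fat diet, and Cebpb and Cebpd at 1.15 and 0.75 between diets, all called, and the list median between schedules was -0.38, where all genes had 0.01. These 2 comparisons share the control high-fat libraries. The test of schedule by time in mothers called 0 of the 7. Time of day called 2 of 7 in control mothers, where 4.34% of all genes were called. It called 2 of 7 in shifted and in control low-fat offspring (24.7% and 15.5% of all genes) and 4 of 7 in shifted high-fat offspring (30.1%). In shifted mothers, both fetal arms and control high-fat offspring it called 0, where at most 0.725% of all genes were called.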
